A study of Mus musculus with 12 samples.

Results

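The expression of the core Notch genes was followed through myogenic differentiation of C2C12 cells with and without a PPARγ construct. The set holds 10 of the 46983 genes of the expression table: the receptors Notch1, Notch2, Notch3 and Notch4, the ligands Dll1, Jag1 and Jag2, and the target repressors Hes1, Hey1 and Heyl. They were chosen by name, as the genes whose Ensembl identifiers map to these symbols, at a time when other results of these data were known. Of all genes, 27138 had a value above 0 in at least 1 library, and 18023 reached 0.1 FPKM (fragments per kilobase of exon, scaled to the depth of the library) in at least 3 of the 12 libraries and were tested. All 10 Notch genes were among them; 8 reached 0.1 FPKM in all 12 libraries, Heyl did so in 9 and Notch4 in 7, so both entered the test through the groups in which they were higher.

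In Notch signalling, a ligand on the surface of a cell binds a receptor on its neighbour, the receptor is cut by ADAM proteases and γ-secretase, and its intracellular part enters the nucleus. There it joins the DNA-binding protein RBPJ and Mastermind coactivators and switches on genes such as those of the HES and HEY families, which encode basic helix-loop-helix repressors. In skeletal muscle the pathway is known to keep satellite cells and myoblasts undifferentiated, and in vessel walls Notch4 is known from endothelial cells and Notch3 and Heyl from mural cells.

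C2C12 myoblasts come from the mouse and, on differentiation, stop dividing and fuse to form myotubes. RNA of whole cultures was sequenced on 0d and after 5 days of differentiation (5d) in wild type cells (WT) and in cells that carried a PPARγ construct (PPARγ/+) (4 groups of 3 libraries). The design asks how overexpressed PPARγ, the nuclear receptor that drives adipocyte differentiation, alters gene expression during myogenesis.

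WT_0d and WT_5d held wild type C2C12 cells on 0d and 5d, and PPARγ/+_0d and PPARγ/+_5d held cells with the PPARγ coding sequence in the piggyBac vector PB-IP, inserted with transposase and selected with puromycin, on the same days. The number of clones behind the PPARγ/+ cells was not given. The study also names its WT group after the vector, without stating whether WT cells received it empty. Its design text speaks of inducible cells with uninduced controls, whereas the methods name no inducer. The stated medium, with fetal bovine serum and LIF, was given without a change to low serum. The triplicates were called biological, without stating whether they were separate cultures; if they were not, the p-values measure only the spread between these samples, which may be technical.

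The fragments on genes, recovered from the FPKM, numbered 16362197, 21248568 and 19402831 in WT_0d and 21329932, 16273501 and 19094514 in WT_5d. In PPARγ/+_0d they numbered 20503971, 22013354 and 18379621, and in PPARγ/+_5d 17283631, 18001869 and 15557950. At this depth, the Notch genes rested on between 2 fragments (Heyl in a PPARγ/+_0d library) and 9702 fragments (Notch2 in a WT_5d library).

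Pparg, the gene of the construct, was at 7.56, 5.10 and 6.92 FPKM in the WT_0d libraries and 3.12, 3.53 and 4.59 in WT_5d. The PPARγ/+_0d libraries had 44.4, 28.0 and 46.4 FPKM and those of PPARγ/+_5d 40.1, 44.1 and 92.7. Every PPARγ/+ library lay above every WT library, as labelled (on 0d log2 fold change 2.57, SE 0.24, adjusted p = 0.0115; on 5d log2 fold change 3.85, SE 0.34, adjusted p = 0.0379, by limma).

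WT_5d replicate 3 stood apart. Its correlation with the other WT_5d libraries over all genes tested was 0.961 and 0.969, while all other pairs within a group lay between 0.977 and 0.982. The summed FPKM of 6 myotube markers (Myog, Ckm, Myh3, Acta1, Tnnt3 and Mymk) was 3973, 3045 and 896 in the WT_5d libraries, so that replicate 3 had less than the others, and 923, 1056 and 1086 in PPARγ/+_5d. Ckm, Myh3 and Tnnt3 were nevertheless higher in WT_5d replicate 3 (12, 87.9 and 123 FPKM) than in any PPARγ/+_5d library (at most 5.71, 56.1 and 88.4). The other markers were not: Acta1 and Mymk were lower in WT_5d replicate 3 (491 and 92.6 FPKM) than in any PPARγ/+_5d library (at least 622 and 109). Myog, at 90.0 FPKM, was within the range of PPARγ/+_5d (78.8 to 90.3). On 0d the sum was 15.1, 103 and 9.88 in WT and 7.20, 14.0 and 23.4 in PPARγ/+, and WT_0d replicate 2 stood above the other WT_0d libraries. Acta1, the skeletal muscle actin, was the most abundant of these markers in every library. Results that rest on these libraries are given with and without them; in such bulk samples, fewer cells of a type and less RNA per cell cannot be told apart.

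Among the receptors, Notch2 was the most abundant in each of the 12 libraries and made up 61.9% to 83.4% of the summed receptor FPKM. Its mean over all libraries was above that of 91.5% of the genes tested, against 68.8% for Notch3, 46.8% for Notch1 and 7.0% for Notch4. Hes1 was the most abundant repressor in every library (above 72.4% of genes by its mean), with 58.8% to 92.8% of the summed repressor FPKM, while Hey1 was above 36.4% and Heyl above 26.8% of genes. The ligands lay in between, with Jag2 above 56.0%, Jag1 above 48.6% and Dll1 above 42.1% of genes. These ranks are of means over all libraries, and the order differed between groups. By group mean, Jag2 (2.66 FPKM) was below Jag1 (4.44) and Dll1 (3.19) in PPARγ/+_5d. Dll1 (0.537) was below Hey1 (2.41) in PPARγ/+_0d, and Hey1 (0.496) was below Heyl (0.815) in WT_5d.

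From 0d to 5d in WT cells, the ligands Dll1 and Jag1 rose and the ligand Jag2 fell, while no receptor or repressor passed the call (unadjusted p not above 0.05, with at least a 2-fold change). Thus 2 of 10 Notch genes rose, against 8.94% of all genes tested, and 1 of 10 fell, against 7.53%. In PPARγ/+ cells Dll1 and Jag1 rose as well, the repressor Heyl rose and the repressor Hey1 fell. Here 3 of 10 members rose, against 9.11% of all genes, and 1 of 10 fell, against 6.06%. Whether these shares exceed those of all genes was not tested.

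On 0d, Notch3, Jag2, Hes1 and Heyl had lower values in the PPARγ/+ cells, called at an adjusted p not above 0.05 with at least a 2-fold change. These were 4 of 10 members, against 1.23% of all genes tested. No member was called higher by limma, against 0.361% of all genes. At an unadjusted p of at most 0.05 Hey1 was the only member on the higher side. Limma-voom on the recovered fragments gave 0 higher and the same number of 4 lower, against 2.69% of all genes called in either direction. On 5d, limma called 0 of 10 members, against 0.0943% of all genes higher and 0.061% lower. At an unadjusted p of at most 0.05 alone, 1 of 10 passed on 5d (Hes1), against 12.7% of all genes. By voom 0 of 10 were called as well, against 0.233% of all genes, and 1 of 10 had that p, against 13.1%.

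The interaction, which sets the change over the 5 days in PPARγ/+ cells against that in WT cells, called 0 of 10 members by limma, against 0.76% of all genes. At an unadjusted p of at most 0.05, 3 of 10 passed (Notch1, Notch3 and Heyl), against 12% of all genes. By voom 0 of 10 were called, against 0.527% of all genes, and 4 of 10 had that p, against 11.3%. With limma array weights, which give less weight to libraries that vary more, the interaction of Notch3 and Heyl was called. That was 2 of 10 members, against 11.5% of all genes (2070 genes in place of 137). Whether these genes took a different course in the cell types thus depended on the weighting.

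**Figure D1:**
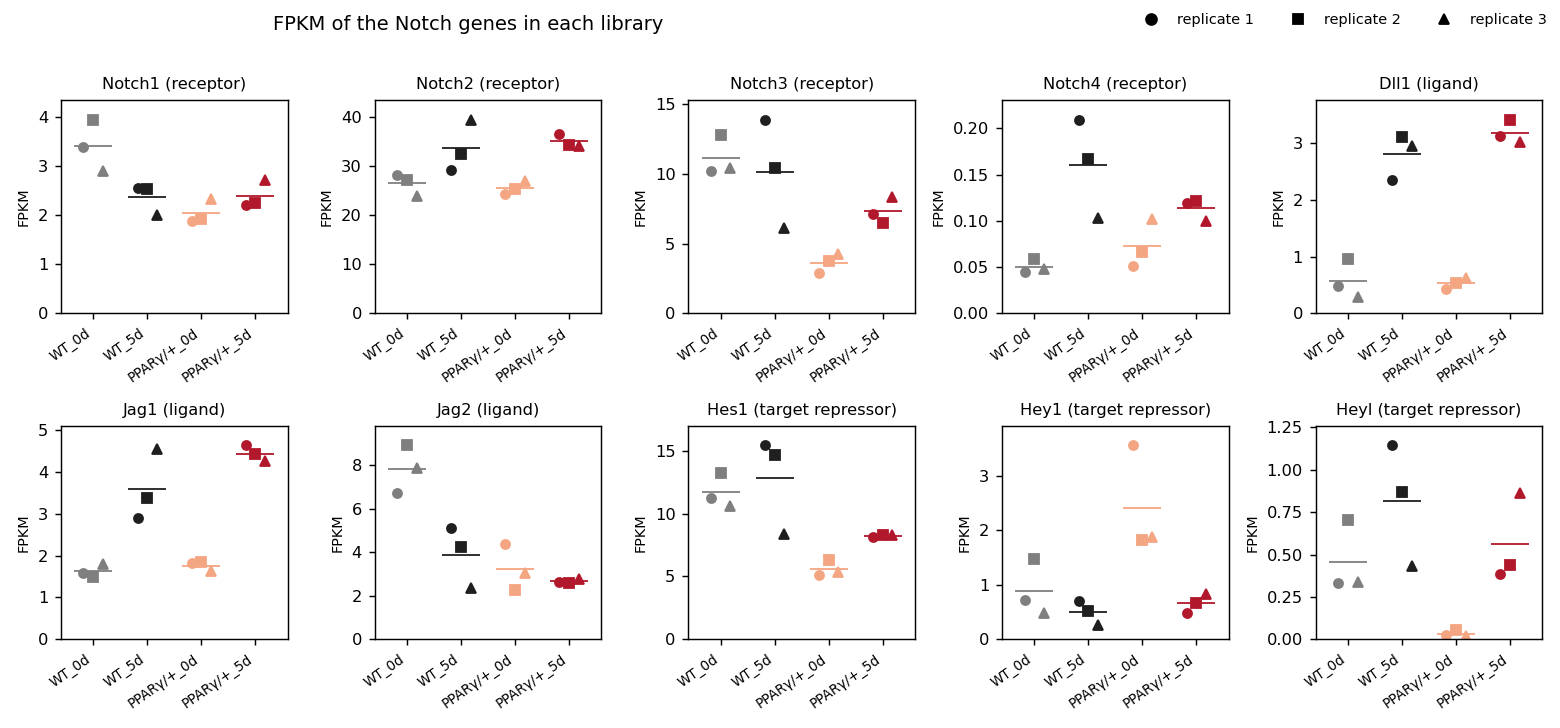
FPKM of each Notch gene (y axis, from 0) in the 12 libraries, by group (x axis); symbols mark the replicates and horizontal lines the group means. Dll1 and Jag1 lie higher on 5d than on 0d in both cell types, and Notch3, Jag2, Hes1 and Heyl lie lower in PPARγ/+_0d than in WT_0d.

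Dll1 encodes a Delta-like transmembrane ligand that myogenic cells present to their neighbours (chromosome 17, 15367354 to 15376872, minus strand; positions are of the GRCm38 build with the GENCODE M21 annotation). Its FPKM was 0.489, 0.958 and 0.287 in WT_0d and 2.34, 3.12 and 2.94 in WT_5d. In PPARγ/+_0d it was 0.437, 0.545 and 0.630 and in PPARγ/+_5d 3.12, 3.42 and 3.02. All 6 libraries of 5d lay above all 6 of 0d, and on each day the libraries of the cell types overlapped. Dll1 rose in WT (log2 fold change 2.21, SE 0.37, adjusted p = 0.00531) and in PPARγ/+ cells (log2 fold change 2.38, SE 0.15, adjusted p = 6.58e-05), with an interaction of 0.16 (95% interval -0.75 to 1.08; -0.22 to 0.51 with a library left out). With any library left out the rise in WT was between 1.87 and 2.60 and that in PPARγ/+ between 2.26 and 2.48, and each stayed called. Exons of Dll1 share 867 bases, 20.6% of their length, with those of the noncoding A930024N18Rik on the other strand. The methods of the study do not state whether the libraries mark strand, and A930024N18Rik reached at most 0.118 FPKM.

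Jag1 encodes a Jagged ligand that binds the same receptors (chromosome 2, 137081456 to 137116644, minus strand). It was at 1.59, 1.5 and 1.81 FPKM in WT_0d and at 2.89, 3.37 and 4.54 in WT_5d. PPARγ/+_0d had 1.82, 1.84 and 1.63 FPKM and PPARγ/+_5d 4.63, 4.42 and 4.26. As for Dll1, every library of 5d was above every library of 0d, with overlap between the cell types on either day; in WT_5d the highest value was that of replicate 3. Jag1 rose in PPARγ/+ cells (log2 fold change 1.29, SE 0.09, adjusted p = 9.63e-05) and in WT cells (log2 fold change 1.07, SE 0.19, adjusted p = 0.00638), with an interaction of 0.21 (95% interval -0.25 to 0.68). Without WT_5d replicate 3 the interaction was 0.39 and the WT value 0.90, under the fold threshold, with an adjusted p of 0.0089 (0.00887 to 0.0287 over the fits with a library left out).

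Jag2, the other Jagged ligand, is on chromosome 12, 112907819 to 112929776, minus strand. Its FPKM was 6.73, 8.91 and 7.88 in WT_0d and 5.09, 4.22 and 2.36 in WT_5d. It was 4.38, 2.28 and 3.04 in PPARγ/+_0d and 2.64, 2.58 and 2.75 in PPARγ/+_5d. The WT_0d libraries thus held the highest Jag2 values, above all others, while PPARγ/+_0d overlapped both groups of 5d. Jag2 fell in WT cells (log2 fold change -1.05, SE 0.28, adjusted p = 0.0288), and on 0d it was lower in PPARγ/+ than in WT (log2 fold change -1.29, SE 0.24, adjusted p = 0.0491). In PPARγ/+ cells its value of 5d against 0d was -0.23 (adjusted p = 0.435), and the interaction was 0.83 (95% interval -0.01 to 1.66, adjusted p = 0.424).

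The Jag2 calls rested on a narrow margin. The fall in WT was -0.74 without WT_5d replicate 3 and -0.96 without WT_0d replicate 2, both under the fold threshold. Without WT_5d replicate 3 the interaction was 0.51. On 0d the difference was called in 1 of 6 fits with a library left out (adjusted p = 0.0447 without PPARγ/+_0d replicate 1). With 1 of the other libraries left out, the adjusted p lay between 0.0924 and 0.165 and the log2 fold change between -1.40 and -1.07. Under the alternatives other than a library left out, the 0d difference of Jag2 was called in 5 of 10, with an adjusted p between 0.00609 and 0.196.

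The 3 ligands together had 8.81, 11.4 and 9.98 FPKM in WT_0d and 10.3, 10.7 and 9.85 in WT_5d. In PPARγ/+_0d their sum was 6.64, 4.66 and 5.30 and in PPARγ/+_5d 10.4, 10.4 and 10. The sum was thus lowest in PPARγ/+_0d, below all other libraries, and the WT sums of the days overlapped. The make-up of the sum differed more: Jag2 held 76.4, 78.4 and 79.0% of it in WT_0d but 49.3, 39.4 and 24.0% in WT_5d. In PPARγ/+ its share was 66.0, 48.9 and 57.4% on 0d and 25.4, 24.8 and 27.4% on 5d. The share of Dll1 was 5.55, 8.43 and 2.87% in WT_0d, 22.7, 29.1 and 29.9% in WT_5d, 6.59, 11.7 and 11.9% in PPARγ/+_0d and 30, 32.8 and 30.1% in PPARγ/+_5d. No test was run on these sums and shares.

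**Figure D2:**
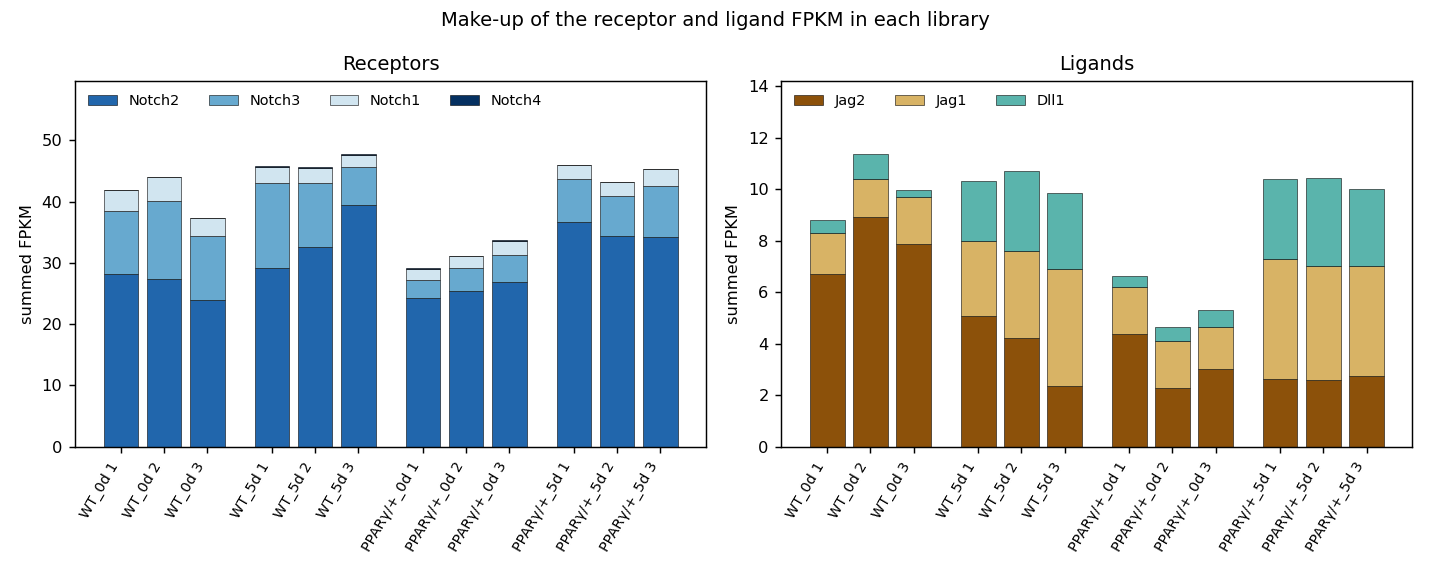
Summed FPKM (y axis, from 0) of the 4 receptors (left) and the 3 ligands (right) in each library (x axis, by group and replicate), with the part of each gene in colour. Notch2 is the largest part of every receptor bar, and the part of Jag2 is 76.4% to 79.0% in the WT_0d bars and 24.0% to 49.3% in the WT_5d bars.

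Notch2, the most abundant of the receptors, is on chromosome 3, 98013527 to 98150361, plus strand. It was at 28.2, 27.3 and 24.0 FPKM in WT_0d and 29.2, 32.5 and 39.5 in WT_5d. Its values were 24.3, 25.5 and 27.0 in PPARγ/+_0d and 36.6, 34.4 and 34.2 in PPARγ/+_5d. Every library of 5d lay above every library of 0d, by a small margin in WT, where the highest library of 0d had 28.2 and the lowest of 5d 29.2 FPKM. The log2 fold change was 0.34 in WT (SE 0.13, adjusted p = 0.083) and 0.46 in PPARγ/+ (SE 0.06, adjusted p = 0.000938), in both cases under the fold threshold. The WT value was 0.22 without WT_5d replicate 3, which held the highest Notch2 value. Between the cell types it was -0.05 on 0d (95% interval -0.24 to 0.14) and 0.07 on 5d (95% interval -0.22 to 0.35).

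Notch3 encodes a receptor that is also made by satellite cells and by mural cells of vessels (chromosome 17, 32120820 to 32166852, minus strand). Its FPKM was 10.2, 12.8 and 10.4 in WT_0d and 13.9, 10.5 and 6.13 in WT_5d. In PPARγ/+_0d it was 2.90, 3.76 and 4.28, and in PPARγ/+_5d 7.13, 6.50 and 8.36. The PPARγ/+_0d libraries held the lowest values, below all 9 others, whereas the WT_5d libraries ranged from below to above WT_0d, with replicate 3 lowest. On 0d Notch3 was lower in PPARγ/+ (log2 fold change -1.60, SE 0.16, adjusted p = 0.0139). Its log2 fold change from 0d to 5d was 0.997 in PPARγ/+ (SE 0.16, adjusted p = 0.00245), just under the fold threshold, and -0.20 in WT (SE 0.29, adjusted p = 0.623). The interaction was 1.20 (SE 0.35, adjusted p = 0.18), and over the alternatives other than a library left out its adjusted p was between 0.0166, with array weights, and 0.272.

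Without WT_5d replicate 3 the WT value of Notch3 turned to 0.12 and the interaction was 0.88 (adjusted p = 0.0946; 0.0603 to 0.378 over the fits with a library left out). The value in PPARγ/+ passed the call in 4 of 6 fits with a library left out, but was 0.85 without PPARγ/+_0d replicate 1 and 0.90 without PPARγ/+_5d replicate 3. The 0d difference in Notch3 kept a log2 fold change between -1.72 and -1.44 with any library left out. Its adjusted p was above 0.05 without WT_0d replicate 2 (0.0547), without WT_0d replicate 3 (0.0522) and without PPARγ/+_0d replicate 2 (0.066).

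Notch1, the receptor best known from the activation of satellite cells, is on chromosome 2, 26457903 to 26516663, minus strand. It had 3.38, 3.94 and 2.88 FPKM in WT_0d and 2.55, 2.53 and 1.99 in WT_5d. PPARγ/+_0d had 1.87, 1.91 and 2.32 FPKM and PPARγ/+_5d 2.20, 2.24 and 2.71. The WT_0d libraries were above all others, and the other 3 groups overlapped. The log2 fold change was -0.51 from 0d to 5d in WT (adjusted p = 0.0534) and 0.22 in PPARγ/+ (adjusted p = 0.225), and -0.71 between the cell types on 0d (SE 0.15, adjusted p = 0.0648), none of which was called. The WT value of Notch1 was -0.40 without WT_5d replicate 3 and -0.40 without WT_0d replicate 2. The interaction was 0.72 (SE 0.21, adjusted p = 0.181).

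Notch4, the receptor known from endothelial cells, is on chromosome 17, 34564268 to 34588503, plus strand. It rested on 7 to 43 fragments a library: 7, 12 and 9 in WT_0d, 43, 26 and 19 in WT_5d, 10, 14 and 18 in PPARγ/+_0d and 20, 21 and 15 in PPARγ/+_5d. As FPKM these were 0.0448, 0.0590 and 0.0482 in WT_0d and 0.209, 0.167 and 0.103 in WT_5d. In PPARγ/+_0d they were 0.0508, 0.0666 and 0.102, and in PPARγ/+_5d 0.120, 0.121 and 0.1. All WT_5d libraries were above all of WT_0d, with summed fragments of 28 and 88 and a ratio per fragment sequenced of 3.15 (95% interval 2.04 to 5.01, which covers counting error only). The log2 fold change on FPKM + 0.1 was 0.77 (SE 0.25, adjusted p = 0.0517) and was not called; without WT_5d replicate 3 it was 0.93 (adjusted p = 0.0217; 0.0217 to 0.119 over the fits with a library left out), still under the fold threshold. With 0.01 in place of 0.1 it was 1.44 and was called, as it was by voom. In PPARγ/+ it was 0.31 (adjusted p = 0.297).

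Summed over the 4 receptors, the FPKM was 41.9, 44.1 and 37.3 in WT_0d and 45.9, 45.7 and 47.7 in WT_5d. It was 29.1, 31.2 and 33.7 in PPARγ/+_0d and 46.0, 43.3 and 45.4 in PPARγ/+_5d. PPARγ/+_0d thus held the lowest sums, apart from all other groups, and the groups of 5d overlapped. Notch3 gave 24.4, 29.0 and 28.0% of the sum in WT_0d and 9.96, 12.1 and 12.7% in PPARγ/+_0d. On 5d it gave 30.3, 22.9 and 12.8% in WT and 15.5, 15.0 and 18.4% in PPARγ/+.

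Hes1 encodes a repressor that is a direct target of Notch signalling in many cell types and that also responds to other signals (chromosome 16, 30064384 to 30067796, plus strand). Its FPKM was 11.3, 13.3 and 10.6 in WT_0d and 15.4, 14.7 and 8.36 in WT_5d. It was 5.11, 6.29 and 5.37 in PPARγ/+_0d and 8.12, 8.26 and 8.30 in PPARγ/+_5d. On each day every PPARγ/+ library was below every WT library, on 5d by a narrow gap to WT_5d replicate 3 (8.36 against at most 8.30 FPKM). On 0d Hes1 was lower in PPARγ/+ (log2 fold change -1.05, SE 0.12, adjusted p = 0.0161). On 5d the log2 fold change was -0.58 (unadjusted p = 0.0484, adjusted p = 0.391) and was not called. Without WT_5d replicate 3 it was -0.87 with an adjusted p of 0.00604 (0.00604 to 0.683 over the fits with a library left out), still under the fold threshold.

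From 0d to 5d the value of Hes1 was 0.55 in PPARγ/+ (SE 0.09, adjusted p = 0.00228), under the fold threshold, and 0.08 in WT (SE 0.24, adjusted p = 0.817), with an interaction of 0.47 (95% interval -0.13 to 1.07). The WT value was 0.37 and the interaction 0.19 without WT_5d replicate 3, and the WT value was -0.07 without WT_5d replicate 1. The 0d difference of Hes1 lay near the thresholds: it was called in 2 of 6 fits with a library left out, where its log2 fold change was between -1.14 and -0.96 and its adjusted p between 0.0497 and 0.0801. The fits without PPARγ/+_0d replicate 2 and without WT_0d replicate 3 kept the call.

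Hey1 encodes a repressor of the Hairy-related family, known as a Notch target in satellite cells (chromosome 3, 8663359 to 8667256, minus strand). It was at 0.710, 1.47 and 0.489 FPKM in WT_0d and 0.709, 0.524 and 0.255 in WT_5d. Hey1 values in PPARγ/+_0d were 3.55, 1.82 and 1.87 and in PPARγ/+_5d 0.487, 0.669 and 0.824 FPKM. The PPARγ/+_0d libraries lay above all others, with replicate 1 highest, and the other 3 groups overlapped. Hey1 fell in PPARγ/+ cells (log2 fold change -1.68, SE 0.30, adjusted p = 0.00374), and stayed called with any library left out (-1.84 to -1.38). In WT the value was -0.69 (SE 0.46, adjusted p = 0.289), with an interaction of -0.99 (95% interval -2.27 to 0.28, adjusted p = 0.555), so that a difference between the cell types was not shown. Without WT_0d replicate 2 the WT value was -0.29 and the interaction -1.39, and without WT_5d replicate 3 they were -0.35 and -1.33; these interactions had unadjusted p of 0.0242 and 0.0368 and were not called (adjusted p = 0.369 and 0.258; 0.258 to 0.772 over the fits with a library left out). On 0d the difference of 1.40 (SE 0.43, adjusted p = 0.141) was not called.

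Heyl, a related repressor and Notch target, is on chromosome 4, 123233556 to 123249875, plus strand. Its FPKM was 0.333, 0.706 and 0.338 in WT_0d and 1.14, 0.872 and 0.429 in WT_5d. In PPARγ/+_0d it was 0.0240, 0.0525 and 0.0179, and in PPARγ/+_5d 0.387, 0.437 and 0.863. The PPARγ/+_0d values came from 3, 7 and 2 fragments and lay below those of all other libraries, in which the counts were 33 to 149. Heyl was lower in PPARγ/+ than in WT on 0d (log2 fold change -2.03, SE 0.30, adjusted p = 0.0267) and rose in PPARγ/+ cells (log2 fold change 2.27, SE 0.31, adjusted p = 0.00127). The added 0.1 understates the changes of low genes such as Heyl and Notch4, and these sizes depend on it: with 0.01 they were -3.50 and 3.78, and with 1 they were -0.49 and 0.59, not called. Per fragment sequenced, the summed fragments were 14.6 times as many in WT_0d as in PPARγ/+_0d (95% interval 8.13 to 28.8) and 16.9 times as many in PPARγ/+_5d as in PPARγ/+_0d (95% interval 9.45 to 33.4), where the exact Clopper-Pearson intervals cover counting error only.

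In WT cells the value of Heyl from 0d to 5d was 0.69 (SE 0.41, adjusted p = 0.234), and the interaction was 1.58 (SE 0.54, adjusted p = 0.252). Over the alternatives other than a library left out, the adjusted p of the interaction was between 0.046, with array weights, and 0.666. The size of the interaction was then between 0.28, with 1 added to the FPKM, and 3.20, and with 0.01 added it was 2.99. Without WT_5d replicate 3, whose 0.429 FPKM was the lowest of its group, the WT value was 1.04 and passed the call (unadjusted p = 0.0316, adjusted p = 0.0736; 0.0736 to 0.493 over the fits with a library left out). WT_0d replicate 2, which stood out by its myotube markers, held the highest value of WT_0d for all members but Notch2 and Jag1. Without it the 0d difference in Heyl was -1.74 and still called (adjusted p = 0.0495). In the 5 fits that left out another library of 0d, its adjusted p was between 0.0612 and 0.111 and its log2 fold change between -2.18 and -1.96.

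**Figure D3:**
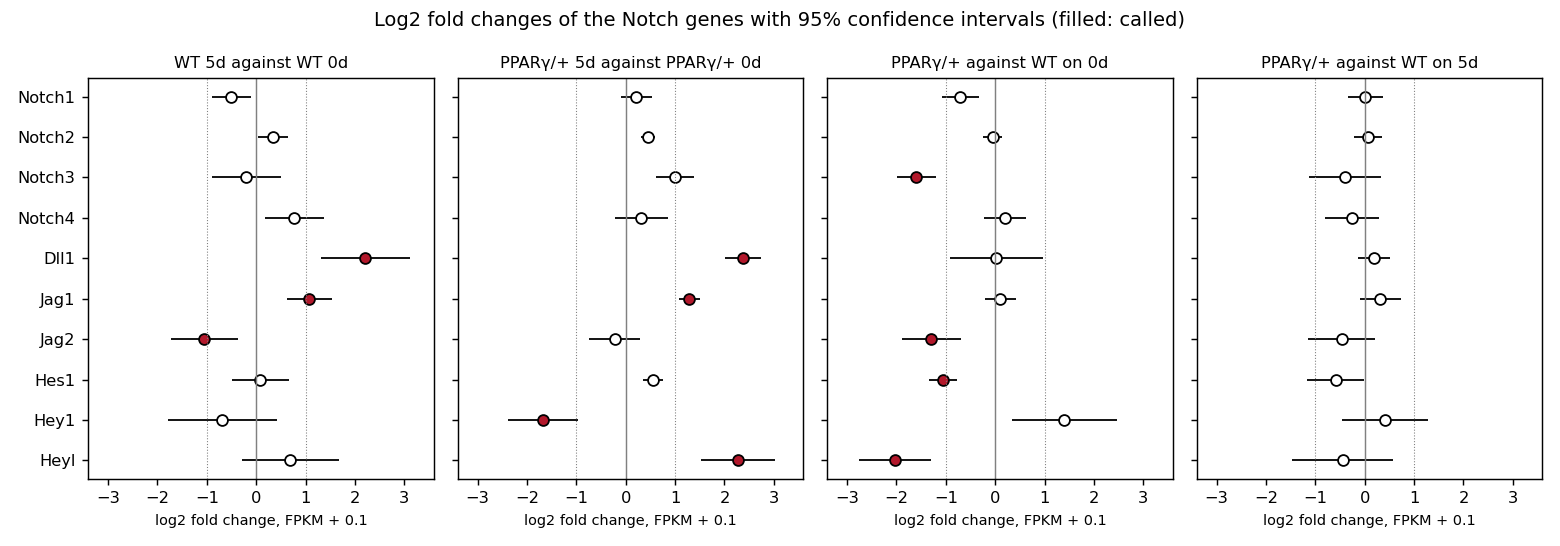
Log2 fold changes on FPKM + 0.1 (x axis) of the 10 Notch genes (y axis) in the 4 comparisons, with 95% confidence intervals from limma; filled points were called, and dotted lines mark a fold change of 2. Dll1 and Jag1 are filled on the right in both comparisons of days, and no point is filled on 5d.

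All 4 calls of the 0d comparison had small margins. With a library left out, the number of members called was 1 without WT_0d replicate 1 (Notch3), without WT_0d replicate 2 (Heyl), without WT_0d replicate 3 (Hes1), without PPARγ/+_0d replicate 2 (Hes1) and without PPARγ/+_0d replicate 3 (Notch3). It was 2 without PPARγ/+_0d replicate 1 (Jag2 and Notch3). In the same fits the number of all genes called was between 55 and 137, against 287 with all libraries. At an unadjusted p of at most 0.05, the 0d comparison had 6 of 10 members with all libraries, against 21.7% of all genes, and 5 or 6 with a library left out, against 16.1% to 22.7%.

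On 5d the result rested on WT_5d replicate 3. Without it 723 genes were called in place of 28, and 5 of 10 Notch genes had an unadjusted p of at most 0.05 in place of 1, against 29.6% of all genes in place of 12.7%; none of the 5 reached the fold change of 2. Lower in PPARγ/+ were then Hes1 (-0.87), Jag2 (-0.78) and Notch3 (-0.72), and higher were Jag1 (0.49) and Notch2 (0.18), all as log2 fold changes. With all libraries, the 5d values were -0.47 for Jag2, -0.40 for Notch3, 0.32 for Jag1 and 0.07 for Notch2. In the WT comparison of days the same library changed the calls of Jag1, Jag2 and Heyl. Without it 2 of 10 members were called (Dll1 and Heyl) in place of 3, against 17% of all genes in place of 16.5%. The interaction called 0 members without it and 527 genes in place of 137.

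Scaling the libraries by median ratios moved the median of all genes by 0.10 log2 units in the WT comparison of days (from -0.08 to 0.02) and by 0.12 in that of PPARγ/+ (from -0.10 to 0.02). Under that scaling, Dll1 was at 2.33 in WT and 2.49 in PPARγ/+, and Jag1 at 1.20 and 1.41. Jag2 in WT was at -0.92, under the fold threshold, and Notch3 in PPARγ/+ at 1.12 and past it. Hey1 was at -1.56 and Heyl at 2.33 in PPARγ/+, both called under either scaling. Notch2 was at 0.47 in WT and 0.58 in PPARγ/+. On 0d, Jag2 was at -1.33 and no longer called, while Notch3, Hes1 and Heyl were called.

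Lists of marker genes describe the cultures. Markers of proliferating cells (Mki67, Top2a, Ccnb1, Mcm2 and Pcna, all 5 above 3 fragments in every library) summed to 178, 231 and 229 FPKM in WT_0d and 37.1, 33.1 and 29.3 in WT_5d. In PPARγ/+ they summed to 206, 137 and 179 on 0d and 29.0, 29.4 and 29.5 on 5d; Pcna was the most abundant, except in PPARγ/+_0d, where it was Mki67. Myoblast markers (Myod1, Myf5, Des, Cdh15 and Itga7, led by Des) summed to 281, 384 and 212 in WT_0d and 1005, 879 and 301 in WT_5d. In PPARγ/+_0d their sum was 97.1, 107 and 138 and in PPARγ/+_5d 397, 437 and 475. Des and Itga7 gave most of this sum; in WT Myf5 fell from 0d to 5d (log2 fold change -1.46) and Cdh15 was not called (0.43). Like Notch3, Hes1 and Heyl, the myoblast sum was thus lower in the PPARγ/+_0d libraries than in the 9 others, and WT_5d replicate 3 was below the others of its group. Not every gene of the list followed the sum. Myf5 in PPARγ/+_0d (3.66 to 4.25 FPKM) overlapped WT_5d (3.53 to 5.96), and Myod1 in PPARγ/+_0d (5.03 to 9.68) overlapped WT_0d (6.57 to 21.5). The interaction of Myf5 was called by limma (2.20, adjusted p = 0.00844). The part of these states in the Notch results was not tested.

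Reserve or satellite cell markers (Pax7, Cd34, Calcr and Spry1) had 3 of 4 genes above 3 fragments, with Calcr at 0 in all libraries, and summed to 14.9, 26.6 and 23.3 FPKM in WT_0d and 50.6, 46.2 and 59.4 in WT_5d. In PPARγ/+ the sums were 32.1, 24.4 and 27.4 on 0d and 52.8, 57.6 and 67.1 on 5d. Cd34 was the most abundant of them on 0d and Spry1 on 5d. The sums of 5d were above those of 0d through Spry1 (log2 fold change 3.07 in WT and 2.93 in PPARγ/+, both called), whereas Cd34 (-0.17 and -0.01) and Pax7 (0.50 and 0.14) were not called. The part of reserve cells in the Notch results was not tested.

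Adipocyte markers (Adipoq, Fabp4, Plin1, Cfd and Lep) summed to at most 0.0794 FPKM in the WT libraries. Their sum was 4.73, 2.79 and 4.08 in PPARγ/+_0d and 13.1, 19.6 and 65.9 in PPARγ/+_5d, where Adipoq was the most abundant; 4 of 5 were above 3 fragments in a library and Lep was at 0 in all. Endothelial markers (Pecam1, Cdh5, Kdr, Tek and Emcn) summed to 0.0224, 0.0849 and 0.0371 FPKM in WT_0d and 0.148, 0.192 and 0.233 in WT_5d. In PPARγ/+ the sums were 0.0496, 0.0966 and 0.136 on 0d and 0.146, 0.225 and 0.207 on 5d. Cdh5 and Emcn had at most 3 fragments in every library, while Tek reached 16 and Kdr 20, at FPKM like those of Notch4. In WT the sum, like Notch4, was higher in each library of 5d than in those of 0d. Within WT_5d, however, the sum rose from replicate 1 to replicate 3 while Notch4 fell (0.209, 0.167 and 0.103 FPKM). In PPARγ/+ the sum also separated the days, whereas Notch4 overlapped (up to 0.102 FPKM on 0d and from 0.1 on 5d). The source of these fragments was not tested. Of the mural markers (Myh11, Rgs5, Cspg4 and Pdgfrb), Pdgfrb, which mesenchymal cells also make, gave most of a sum of 80.8, 92.3 and 97.4 FPKM in WT_0d and 130.1, 149 and 144 in WT_5d. The mural sums were 101, 115 and 118 in PPARγ/+_0d and 148, 155 and 148 in PPARγ/+_5d, so that each library of 5d was above each of 0d. Rgs5 had 16 fragments in each PPARγ/+_5d library and at most 4 in each other library, and reached 0.1 FPKM in PPARγ/+_5d alone. It thus entered the test through that group, and from 0d to 5d it was called higher in PPARγ/+ (log2 fold change 1.07) and not called in WT (0.18). Pdgfrb (0.73 in WT and 0.56 in PPARγ/+) and Cspg4 (-0.60 and -0.92) were not called over the same days. Of the haematopoietic markers (Ptprc, Cd68 and Adgre1), Cd68 alone was above 3 fragments, with a sum of at most 5.09 FPKM.

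The other genes of the pathway were taken from a list of 54 by role, of which 43 were tested. In WT, 5 of 43 rose and 2 fell from 0d to 5d, against 8.94% and 7.53% of all genes, with a median log2 fold change of 0.05 against -0.08 for all genes. In PPARγ/+, 4 of 43 rose and 2 fell, against 9.11% and 6.06%, with a median of -0.02 against -0.10. Whether these shares differ from those of all genes was not tested. On 0d limma and voom each called 1 of 43 lower in PPARγ/+, against 1.23% of all genes by limma, and 0 higher, against 0.361% (10 of 43 at an unadjusted p of at most 0.05, against 21.7% of all genes; median 0.09 against 0.02). On 5d limma called 0 of 43, against 0.0943% of all genes higher and 0.061% lower, with 6 at that unadjusted p, against 12.7%, and 0 called by voom (median 0.03 against 0.02). Without WT_5d replicate 3, 2 of 43 (Neurl1a and Hes6) were called lower on 5d. In that fit 4.01% of all genes were called in either direction (723 genes, of which 215 were higher). The interaction called 0 of 43, against 0.76% of all genes, with 5 at that p, against 12%, and 0 called by voom (median -0.08 against -0.01); without WT_5d replicate 3 it called 3 (Hes6, Rbpj and Tle1), against 2.92% of all genes.

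Dtx4, a Deltex ubiquitin ligase, rose by 1.73 in WT and 2.11 in PPARγ/+ (log2 fold changes, as are those that follow), and Tle2, a Groucho corepressor that works with HES proteins, by 1.45 and 2.30. Hes6, a family member known to promote myogenic differentiation and to oppose Hes1, rose by 1.98 and 1.20. Dtx3l rose by 1.08 in WT and was at 0.61 in PPARγ/+, which was not called (interaction -0.47, adjusted p = 0.532). Its exons share 458 bases with those of Parp9 on the other strand, which reached 4.77 FPKM. Dlk2, a noncanonical ligand, fell in both (log2 fold change -2.05 and -2.29), as did Neurl1b, a ubiquitin ligase that acts on ligands (-1.78 and -2.23).

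Neurl1a, the related ligase, was at 5.03, 6.74 and 2.62 FPKM in WT_0d and 23.0, 19.1 and 5.55 in WT_5d. In PPARγ/+_0d it was at 0.855, 0.504 and 0.986, and in PPARγ/+_5d at 5.78, 6.39 and 6.37. It rose in WT (log2 fold change 1.57, SE 0.60, adjusted p = 0.0831) and in PPARγ/+ (log2 fold change 2.87, SE 0.22, adjusted p = 0.000126), and was lower in PPARγ/+ on 0d (log2 fold change -2.42, SE 0.39, adjusted p = 0.0355). WT_5d replicate 3 was below the others of its group and overlapped WT_0d. The call in WT was lost in 4 of 6 fits with a library left out: it was 1.65 without WT_0d replicate 1, 1.20 without WT_0d replicate 3, 1.19 without WT_5d replicate 1 and 1.32 without WT_5d replicate 2, against 2.20 and called without WT_5d replicate 3. Of the fits of 0d with a library left out, only that without WT_0d replicate 3 kept the call (-2.79); with 1 of the 5 others left out the difference was between -2.59 and -2.13 and not called. On 5d the log2 fold change was -1.11 and not called, and without WT_5d replicate 3 it was -1.75 and called. With no filter Neurl1a was called neither in WT from 0d to 5d nor on 0d, and with the replicate block it was not called on 0d. Exons of Neurl1a share 690 bases, 9.47% of their length, with those of AC132288.2 on the same strand, for which no FPKM was listed.

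Of the 54, 11 were not tested. These were the ligands Dll3, Dll4, Dlk1 and Dner, the glycosyltransferase Mfng, Nrarp and Dtx1, and the repressors Hes2, Hes3, Hes5 and Hey2, of which Hes5 was at 0 in all 12 libraries and the others had at most 13 fragments in a library. Their values were at or below 0.141 FPKM, and changes in them were not tested.

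The group means spanned the widest range for Heyl (2.72 log2 units), Dll1 (2.40) and Hey1 (2.09). Over the 12 libraries, the genes whose log2 values were most like Heyl by Pearson's r, among 18013 other genes, were 1700003F12Rik (r = 0.983), Mgam (r = 0.974) and Popdc3 (r = 0.974). Popdc3, a membrane protein of muscle, had group means of 53.4, 68.5, 28.0 and 56.3 FPKM in WT_0d, WT_5d, PPARγ/+_0d and PPARγ/+_5d. Among the 3 genes most like Dll1 were Abca8a (r = 0.987) and Ghr (r = 0.984). Ghr, the growth hormone receptor, had means of 6.94, 23.4, 6.94 and 22.7 FPKM in the same order. For Hey1 they were 4930432K21Rik (r = 0.905), 2810006K23Rik (r = 0.888) and Gja3 (r = 0.881), of which Gja3, a connexin, had 0 to 39 fragments a library. These values describe 12 libraries that share 4 groups, so that any gene that differs between the same groups scores high.

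Promoters of Dll1 and Jag1, the members that rose in both cell types, are shown as RefSeq gives them for GRCm38.p6. RefSeq promoter entries were held for 7 of the 10 members, with 8 entries in all, for Notch1, Notch2, Notch3, Notch4, Dll1, Jag1 and Jag2. Each runs 5′ to 3′ on the gene's own strand, here the minus strand, from 250 bases before the transcript start, with the start base (position 251) in capitals. The Dll1 entries lie at chr17:15375774-15376073, where the start base 15375823 is in an exon of Dll1, and at chr17:15376883-15377182, where the start base 15376932 is 60 bases outside the annotated gene. The Jag1 entry lies at chr2:137116471-137116770, with its start base 137116520 in an exon of Jag1. The GC content was 62.7% and 56.3% for Dll1 and 55.7% for Jag1, against a median of 52.7% over 32851 promoters. The letters TGGGAA, bound by RBPJ, and the longer GTGGGAA, which contains them, were searched on both strands. Of all promoters of 300 bases, 25.6% held TGGGAA and 6.38% held GTGGGAA; of the 8 member entries, 0 held either, which says only that these letters are not in these windows.
Dll1, inner start: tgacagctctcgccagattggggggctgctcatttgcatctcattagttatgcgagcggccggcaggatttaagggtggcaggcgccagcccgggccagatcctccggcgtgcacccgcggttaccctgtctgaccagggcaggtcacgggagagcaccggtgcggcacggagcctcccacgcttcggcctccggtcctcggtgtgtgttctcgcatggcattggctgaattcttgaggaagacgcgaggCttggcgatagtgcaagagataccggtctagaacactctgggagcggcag
Dll1, outer start: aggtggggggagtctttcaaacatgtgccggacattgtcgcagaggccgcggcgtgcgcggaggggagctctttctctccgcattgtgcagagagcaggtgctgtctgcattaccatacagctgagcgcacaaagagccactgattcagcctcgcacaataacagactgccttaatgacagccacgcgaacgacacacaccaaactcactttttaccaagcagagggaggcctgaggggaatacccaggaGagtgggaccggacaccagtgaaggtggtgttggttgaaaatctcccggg
Jag1: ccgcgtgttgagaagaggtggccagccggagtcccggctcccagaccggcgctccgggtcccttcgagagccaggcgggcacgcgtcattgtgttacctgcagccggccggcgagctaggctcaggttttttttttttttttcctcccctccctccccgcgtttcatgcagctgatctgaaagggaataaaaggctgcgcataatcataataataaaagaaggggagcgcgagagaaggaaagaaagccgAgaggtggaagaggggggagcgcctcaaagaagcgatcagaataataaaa

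Exons of other members overlap other genes as well: Notch1 shares 1068 bases with 0610009E02Rik and 414 with Gm13568, Notch3 shares 488 with Gm17276, all on the other strand, and Notch2 shares 541 bases with Gm42820 on its own strand. These partners reached at most 0.324 FPKM in a library. All 10 members are annotated as protein coding, with 3 exon blocks in Hey1 and 40 in Notch1.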

How the data were processed

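RNA of 12 C2C12 libraries, 3 in each of 4 groups, was sequenced. The authors used Trim Galore for trimming, STAR for alignment, HTSeq for counting and DESeq2 for tests, and deposited FPKM for each gene. A second deposited table holds log2(FPKM + 1) of the same values (largest difference 5.3e-14) and was not used. The labels name the build mm9, the methods GRCm38 with Ensembl 83; exon lengths of GRCm38 (GENCODE M21) gave whole fragment numbers for 21224 genes, and for 5914 others the length was inferred from the values (tolerance 0.01). That recovered fragments per gene, and the lengths of Jag2 and Notch3 were among those inferred. The report gives the depth of each sample.

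Tests used limma 3.58.1 in R 4.3.3, with tables made in Python 3.11.15, on log2(FPKM + 0.1) of genes at 0.1 FPKM or more in at least 3 libraries, with a trended variance. Calls needed at least a 2-fold change, with an unadjusted p not above 0.05 between days and a Benjamini-Hochberg adjusted p not above 0.05 between cell types, each within its own 6 libraries. The interaction used all 12 libraries and an adjusted p of at most 0.05. The fits were tested on simulated data, with a common spread for all groups and planted changes larger than 2-fold. That test therefore does not cover calls near 2-fold or the wider spread of WT_5d. All 10 members were named whatever their values, with the called genes among the 54 other pathway genes and the 3 genes most like each of the 3 members with the widest range. Members and lists were chosen with earlier results of these data known. Alternatives were added values of 1 and 0.01, no filter, a filter of 1 FPKM, median-ratio scaling, quantile normalization, array weights, a replicate block, all 12 libraries in a fit, limma-voom, the other call rule and each library left out.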

Additional observations from a re-analysis of the deposited data

How the results depend on the processing

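Of 530 log2 fold changes of the members under the alternatives other than leaving out a library, 493 kept their direction and side of the threshold, 19 were weaker, 12 stronger and 6 reversed; with a library left out these were 324, 20, 5 and 11 of 360. The rise of Dll1 in WT and in PPARγ/+ and the fall of Hey1 in PPARγ/+ were called under all of them. With 1 added to the FPKM, the members called were 1 in WT and 2 in PPARγ/+ from 0d to 5d and 2 for PPARγ/+ against WT on 0d; all genes called were 1441 in WT, 1241 in PPARγ/+, 115 on 0d and 8 on 5d; with 0.01 added they were 71 on 5d. With no filter, 2 members and 107 genes were called on 0d; a filter of 1 FPKM gave 1806 genes in PPARγ/+ from 0d to 5d, where fewer genes were tested. Array weights, whose estimation stopped short of its tolerance in some comparisons, gave 1 member in WT from 0d to 5d, 502 genes on 5d, and 2 members (Notch3 and Heyl) and 2070 genes for the interaction. Voom called 485 genes on 0d, and a fit of all 12 libraries 199 on 5d. The other call rule gave 661 genes on 0d, 606 on 5d, and 3 members and 2164 genes for the interaction, as its threshold is looser. With the replicate block, limma called 0 members and 0 genes on 0d (6 members at an unadjusted p of at most 0.05; voom without the block 4 members), 0 genes on 5d (voom 42) and 61 for the interaction; libraries of the same number had r from -0.0678 to 0.0834, above all pairs of unlike number only between the days of PPARγ/+ (0.034 to 0.0834 against -0.0582 to 0.0125), and no source pairs them. With a library left out, 1 to 2 members and 55 to 137 genes were called on 0d, 1 to 723 genes on 5d (723 without WT_5d replicate 3), and 42 to 527 for the interaction (527 without WT_5d replicate 3). Directions reversed only for log2 fold changes that were not called. Dll1 on 0d was -0.0173 with 1 added, -0.0114 with median-ratio scaling and -0.32 to 0.41 with a library left out. Notch1 on 5d was -0.0210 with median-ratio scaling, -0.0108 with quantile normalization, -0.0832 with array weights and -0.0968 to 0.0732 with a library left out, and Dll1 in the interaction -0.0488 with array weights and -0.22 to 0.51. From 0d to 5d, the ranges with a library left out were -0.46 to 0.12 for Notch3 and -0.0731 to 0.37 for Hes1 in WT and -0.44 to 0.0118 for Jag2 in PPARγ/+, and on 5d -0.0330 to 0.18 for Notch2. For each of these changes the cause was not tested, apart from the smaller number of genes tested and the looser rule. Depth limits Heyl in PPARγ/+_0d and Notch4 most, with at most 7 and 43 fragments a library.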
